A study of Zea mays with 10 samples.

Results

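The windows described here are the 100 kb stretches of the maize (Zea mays) genome whose small RNA was higher in leaf than in root in each of 4 lines. Levels are in CPM, counts per 1000000 reads of the library. A window was taken when it had a mean of at least 5 CPM over the 8 leaf and root libraries of B73, id1, id4 and 9d9a. In addition, its leaf level had to be at least 1.4 times its root level in each line, with 1 CPM added to both. This left 341 windows, 2.02% of the 16841 that reached the mean level and part of 20584 windows with reads in any library. The windows were thus selected on leaf and root levels of these 8 libraries, so their leaf to root ratios are given as a description and nothing is supported with them. The leaf libraries of the 714 and 714H lines did not enter the choice.

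Most plant small RNAs are short interfering RNAs cut by Dicer-like enzymes from double-stranded RNA of transposons and other repeats, where they guide DNA methylation. MicroRNAs come from hairpin transcripts of single genes, and 1 abundant microRNA gene can supply most of the reads of its surroundings. Some microRNAs and secondary small RNAs are known to be made mainly in certain organs. A 100 kb window holds genes and repeats together, so its count sums all these kinds.

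The study sequenced small RNA of 14-day-old seedlings to examine dosage effects of copy number alterations. B73 is the inbred line of the maize reference genome. The others carry alleles of p1, a gene for a Myb-type regulator of red pigment: P1-wwid1 (id1), P1-wwid4 (id4), P1-vv9d9a (9d9a), P1-ww714 (714) and P1-ww714 over B73 (714H). There were 10 libraries, 1 for each line and tissue: 6 from leaf and 4 from root, with no root library of 714 or 714H used here. The leaf libraries are leaf by title and seedling by tissue label. The windows carry no gene names, so tissue was not checked against marker genes. Nothing states how many plants a library holds, and p-values measure only the spread between these libraries. In bulk tissue, fewer cells of a type and less RNA per cell cannot be told apart.

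Depth was 18396214 reads in B73 leaf, between 8472011 and 10017497 in each of the other leaf libraries and between 10921854 and 12160298 in root. The id4 root library lay nearer to leaf in these windows than the other root libraries did. The same levels chose the windows, so the shares that follow are a description and nothing is read from them. Over all windows reaching 5 CPM the id4 ratio had the closest quartiles of the 4 lines, 0.891 and 1.15. The id4 root library was the highest of the 4 root libraries in 145 of the 341 windows (42.5%), against 25.9% of all windows with a mean of at least 5 CPM. The id4 leaf library was the lowest of the 6 leaf libraries in 25.8% of the 341 windows, against 13.6% of all those windows. Of the 4 lines id4 had the lowest ratio in 167 windows (49.0%), against 22% of all those windows. Without id4 the same rule gave 544 windows, and 340 of the 341 were among them.

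Most of the leaf excess was modest. The lowest ratio over the 4 lines had a median of 1.57 and was at least 2 in 52 windows (0.309% of the windows that reached the mean level) and at least 3 in 13 (0.0772%). The median ratios of B73, id1, id4 and 9d9a were 1.87, 1.76, 1.68 and 1.96. Over all windows with a mean of at least 5 CPM those medians were 0.991, 0.986, 1.01 and 1.04. The mean leaf level had a median of 41.0 CPM and ran from 6.87 to 7014 CPM, and the mean root level had a median of 21.1 CPM. Over all those windows the medians were 37.0 CPM in leaf and 37.2 in root, so the 341 were mid-level in leaf and low in root. The rule required leaf above root in each line, so this gap between the tissues is not a result. In 18 windows the mean root level was under 5 CPM. Together the 341 windows took 3.38% to 3.62% of the reads of the 4 leaf libraries that chose them and 1.14% to 1.41% of the root libraries. The 714 and 714H leaf libraries gave 3.25% and 3.44% to them.

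Windows of this kind occurred at every level. They made up 2.14% of windows with a mean of 5 to 10 CPM, 2.77% at 10 to 20, 2.11% at 20 to 50, 1.62% at 50 to 100, 1.15% at 100 to 200 and 3.50% above 200 CPM. The reads were unevenly spread among them. The 8 most read windows held 38.4% to 41.4% of the reads in these windows in the 4 leaf libraries of the rule, and a single one held 18.2% to 22.6%.

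Windows are named by their chromosome and start in the files' coordinates; the build was not stated in the sources used here. One window was nearly empty in root. At chr10 82.4 to 82.5 Mb the leaf libraries held 540, 502, 488 and 512 CPM in B73, id1, id4 and 9d9a. The 714 and 714H leaf libraries, which the rule did not use, held 490 and 585 CPM. The root libraries held 1.97, 4.0, 5.49 and 1.24 CPM in B73, id1, id4 and 9d9a. All 6 leaf libraries lay within 488 to 585 CPM and none of the root libraries reached 6. The lowest ratio over the lines was 75.3, and the next highest among the 341 windows was 7.22.

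The next window, at chr5 183.5 to 183.6 Mb, was the most read of all 341. Leaf held 7186, 7073, 7646 and 6153 CPM in B73, id1, id4 and 9d9a, but 3051 in 714 and 4316 in 714H. Root held 93.6, 201, 1058 and 94.8 CPM in B73, id1, id4 and 9d9a. The id4 root library stood apart here, and the ratio was 7.22 in id4 and up to 76.0 in another line.

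**Figure D1:**
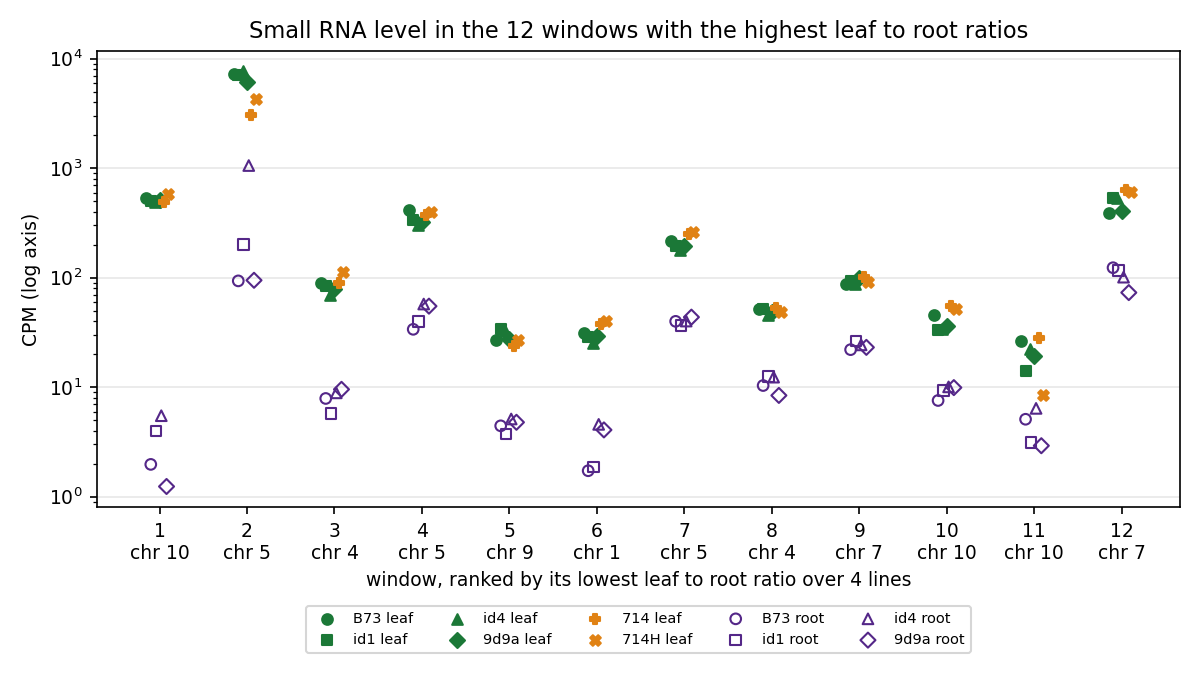
Level in CPM (log axis) of the 12 windows with the highest lowest-of-4-lines leaf to root ratio, in rank order with their chromosome. Filled green symbols are leaf libraries of B73, id1, id4 and 9d9a, orange ones 714 and 714H leaf, open ones root. All leaf libraries lie above all root libraries of the same window, with 714H closest to root in the window of rank 11 (8.40 CPM against 6.41 in id4 root).

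Of the 10 further windows with the highest ratios, those at chr4 121.9 Mb, chr5 20.5 Mb and chr9 63.0 Mb had lowest ratios of 7.13, 5.15 and 4.93. The window at chr4 121.9 Mb held 69.5 to 89.7 CPM in the 4 leaf libraries of the rule, 89.9 in 714, 113 in 714H and 5.77 to 9.57 in root. That at chr5 20.5 Mb held 300 to 416 CPM in leaf of the 4 lines, 375 in 714, 396 in 714H and 33.8 to 57.5 in root. At chr9 63.0 Mb leaf of the 4 lines held 27.1 to 34.3 CPM, 714 23.8, 714H 27.0 and root 3.73 to 5.13. The remaining 7 were at chr1 127.7 Mb (lowest ratio 4.76), chr5 73 Mb (4.33), chr4 72.6 Mb (3.53) and chr7 57.6 Mb (3.48). They also included chr10 37.1 and 93.7 Mb (3.19 and 3.14) and chr7 4.3 Mb (3.12). In all 12 windows both 714 and 714H leaf lay above every root library.

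The 8 most read windows behaved less alike. Besides the one on chromosome 5 at 183.5 Mb they lay at chr1 51.2 Mb, chr2 218.5 Mb, chr5 167.3 Mb, chr10 3.1 and 133.7 Mb, chr2 11.2 Mb and chr1 201.9 Mb. Their mean leaf levels ran from 536 to 7014 CPM. The id4 root library was the highest root library in 5 of the 8. At chr2 218.5 Mb leaf was steady over all 6 libraries, at 978, 917, 1039, 1004, 892 and 996 CPM in B73, id1, id4, 9d9a, 714 and 714H. Root varied there, with 107, 201, 424 and 216 CPM in B73, id1, id4 and 9d9a. At chr1 51.2 Mb leaf held 1872 to 2984 CPM over the 6 libraries, and root held 276, 1098, 335 and 597 CPM in B73, id1, id4 and 9d9a.

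At chr2 11.2 Mb the tissues came close in id4, with 773 CPM in leaf and 492 in root, while B73 had 766 and 133. Leaf of 714 held 456 CPM there and leaf of 714H 493. At the top of the root range the groups therefore overlapped once 714 was counted. At chr5 167.3 Mb leaf held 1185, 634, 615, 1191, 386 and 472 CPM in B73, id1, id4, 9d9a, 714 and 714H. The root libraries ran from 132 to 361 CPM. Leaf of id1 and id4 lay between leaf of B73 and the highest root library, and leaf of 714 just above that root library.

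The cut at 1.4 separated near neighbours. The 5 windows just inside it were at chr2 143.7 Mb, chr8 48.9 Mb, chr1 202.3 Mb, chr6 56.0 Mb and chr9 9.0 Mb, all with a lowest ratio that rounds to 1.4. The 5 just outside were at chr2 167.8, 205.0, 154.7 and 14.9 Mb and chr3 145.9 Mb, with lowest ratios that also round to 1.4. At chr9 9.0 Mb leaf of the 4 lines held 91.7 to 99.2 CPM and root 56.3 to 68.9. At chr2 205.0 Mb, outside, leaf held 48.7 to 55.3 and root 26.9 to 38.2.

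All 10 chromosomes held such windows, and their share of the windows with a mean of at least 5 CPM ran from 1.57% on chromosome 3 (29 windows) to 2.82% on chromosome 7 (39 windows). Chromosome 2 had the most, 46, and chromosomes 6, 8 and 10 the fewest, 24 each. At a ratio of at least 2 in every line the order changed, with 0.652% on chromosome 10 (8 windows), 0.578% on chromosome 7 (8 windows) and 0.138% on chromosome 8 (2 windows). By distance from the nearer chromosome end, the share was higher toward the middle than near the ends, without a steady rise. It was 1.5% within the tenth of the chromosome's length next to either end, 1.42% from 10% to 20%, 1.98% from 20% to 30%, 2.80% from 30% to 40% and 2.71% in the middle. Read level went the other way. The median mean leaf level of all windows reaching 5 CPM fell from 56.4 CPM next to the ends to 25.5 in the middle, and that of the windows higher in leaf was 47.5 and 41.6 CPM there. These shares are descriptions without a test.

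Of the 341 windows 320 had no neighbour that also met the rule. The other 21 formed 1 run of 3 windows and 9 runs of 2, and the median gap between successive windows on a chromosome was 4.4 Mb. Directly adjoining windows that were not members had a median log2 leaf to root ratio of 0.06 (quartiles -0.15 and 0.25, 531 windows). Windows that met the rule are left out of this median, and the members' own median of 0.85 was set by the rule, so the gap between them is not a result. All windows that reached the mean level and were not members had a median of 0.01. At a distance of 0.2 Mb the median was 0.01 and at 1 Mb 0.02. All 4 lines were above 1 in 33.3% of the adjoining windows and in 26.8% of all non-members.

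**Figure D2:**
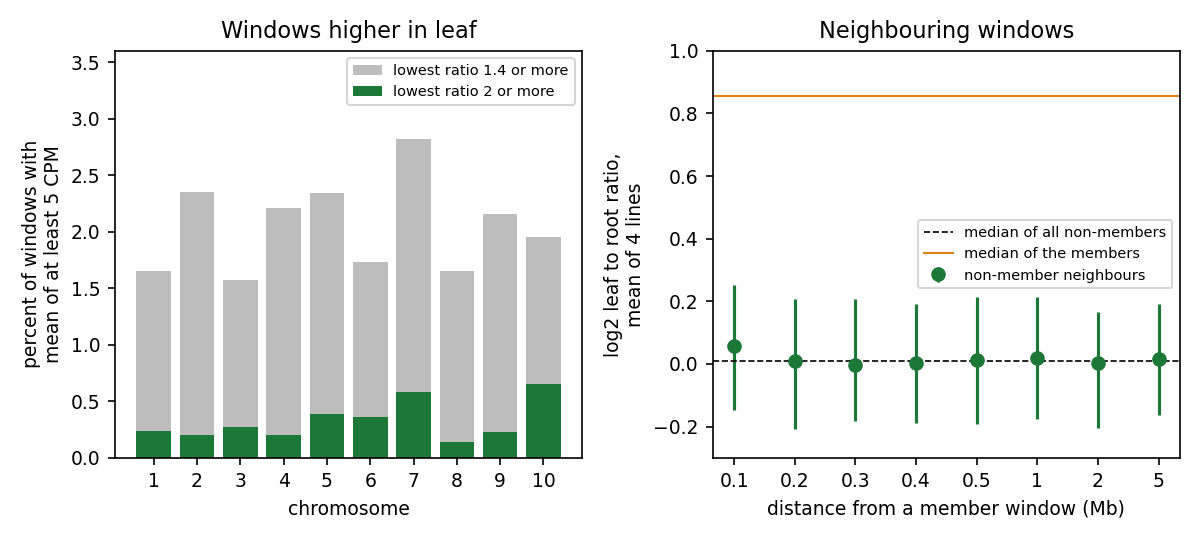
Left, percent of windows with a mean of at least 5 CPM that were higher in leaf, by chromosome, at a lowest ratio of 1.4 (grey) and 2 (green); grey bars run from 1.57% to 2.82%. Right, median and quartiles of the log2 leaf to root ratio (mean of 4 lines) of non-member windows by distance from a member; the adjoining windows have a median of 0.06, and the members' median of 0.85, which the rule set, is drawn for scale only.

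The longest run, at chr1 175.4 to 175.7 Mb, had lowest ratios of 1.60 to 1.91 in its 3 windows. From the first window to the last, mean leaf levels were between 57.1 and 129 CPM. The runs of 2 that come first in genome order lay at chr2 218.4 Mb, chr4 91.2 and 233.5 Mb and chr5 66.2 Mb. At chr2 218.4 Mb the window next to the highly read one held 58.7 to 61.2 CPM in leaf of the 4 lines and 30.2 to 39.6 in root. The pair at chr10 37.0 and 37.1 Mb, picked out after its values were seen, had the highest ratios of any run, 3.0 and 3.19.

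Levels varied less between lines in leaf than in root. The SD of log2(CPM + 1) over the 4 leaf libraries had a median of 0.13 in these windows and 0.11 in all windows reaching 5 CPM. Over the 4 root libraries it was 0.18 and 0.15. Across the 341 windows Pearson's r of log2(CPM + 1) was 0.953 to 0.986 between leaf libraries of the 4 lines. It was 0.947 to 0.965 between 714 or 714H leaf and those libraries, and 0.868 to 0.907 between 714 or 714H leaf and the root libraries. Leaf of the 4 lines had a like range with the root libraries, 0.868 to 0.944. These are correlations across windows of shared libraries and describe order of level only.

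In 714 and 714H, which the rule did not use, the median window lay at the leaf level of the 4 lines. The log2 ratio of 714 leaf to the mean leaf level of the 4 lines had a median of 0.01 (quartiles -0.16 and 0.17), and that of 714H a median of 0.01 (-0.17 and 0.15). Over all windows reaching 5 CPM the medians were 0.01 and -0.00. On a log2 scale from 0 at the mean root level to 1 at the mean leaf level, both 714 and 714H had a median place of 1.01. The 5th percentiles of that place were 0.28 and 0.15. So the typical window held its leaf level in both, with a tail toward the root level. The root libraries set against 714 and 714H are those that chose the windows for low root levels, so the comparison with root is a description.

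**Figure D3:**
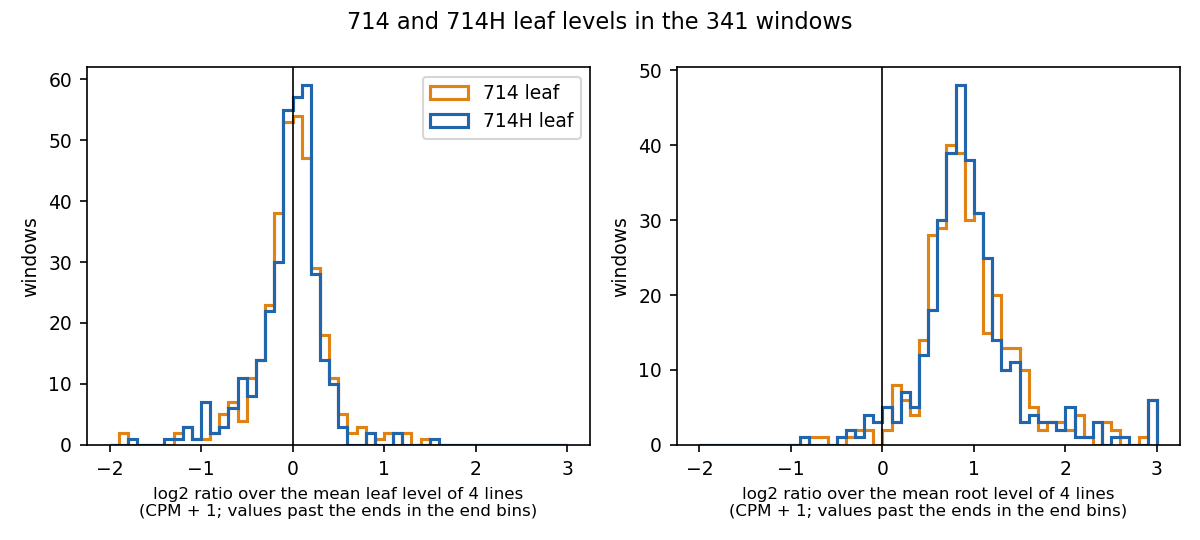
Number of windows by log2 ratio of 714 leaf (orange) and 714H leaf (blue), on the CPM + 1 scale, over the mean leaf level (left) and the mean root level (right) of B73, id1, id4 and 9d9a. The left histograms centre on 0.01, the right ones on 0.87 for 714 and 0.89 for 714H, with tails to negative values.

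Leaf of 714 lay above all 4 root libraries in 322 of the 341 windows, against 33.0% of all windows reaching 5 CPM. Leaf of 714H did so in 320, against 30.3%, and both did so in 313 (91.8%), against 25.6%. At least 1.4 times the mean root level was reached in 302 windows by 714, where 11.1% of all windows did, and in 300 by 714H, where 9.81% did. All 52 windows with a ratio of at least 2 in every line had 714 and 714H leaf above the 4 root libraries. Leaf of 714 was within the range of the 4 other leaf libraries in 143 windows, above it in 100 and below it in 98. These were 41.9%, 29.3% and 28.7%, close to the 45.3%, 29.0% and 25.7% of all windows reaching 5 CPM.

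In 28 windows 714 or 714H leaf did not exceed the highest root library. Both fell short in 12, 714 alone in 7 and 714H alone in 9. Of the 12 windows, 7 were on chromosome 4, at 35.8, 54.4, 55.2, 71.4, 71.6, 91.3 and 136.0 Mb, 2 each on chromosomes 7 and 8 and 1 on chromosome 5. The share of all chromosome 4 windows that fell short in this way was not counted. In the edgeR comparison given below, 25.1% of all its windows reaching 5 CPM were called lower in 714 and 714H. Among its 43 members this was 23.3%, so the low levels there were not particular to the members. At chr4 35.8 Mb leaf held 34.4, 40.6, 33.2, 34.5, 15.9 and 10.2 CPM in B73, id1, id4, 9d9a, 714 and 714H. Root there held 12.9 to 23.0 CPM, so 714H leaf was lower than all 4 root libraries. At chr4 136.0 Mb leaf held 113 to 150 CPM in the 4 lines, 34.4 in 714 and 54.2 in 714H, and root 36.8 to 79.5. The 714 leaf library was below every root library at this window.

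To test where 714 and 714H differed from the other lines in leaf, their 2 libraries were compared with the 4 others in edgeR over 20345 windows. The fit took 714 and 714H as replicates of a single group. However, 714H carries P1-ww714 over B73, and B73 is among the 4 others. The 4 others are among the libraries that chose the windows, for high leaf levels. The test called 40 of the 341 windows (11.7%) at an adjusted p under 0.05, and 7.84% of all windows. In 26 of them 714 and 714H were lower (5.76% of all windows tested) and in 14 higher (2.09%). In percent of the 341, these were 7.62% and 4.11%. Among windows reaching 5 CPM, as all members did, 6.83% were lower and 2.09% higher, so the members' share of lower windows was near that of comparable windows and their share of higher windows was above it. Neither gap was tested. The counts depended on both libraries. Leaving out either 714 or 714H lowered the number of members called, higher ones included, and that of all windows called. Without 714 the members' share of higher windows was no longer above that of all windows tested. Each such fit leaves a single library in the group, so nothing more is read from it. The median log2 change over the members was -0.01, and 0.00 over all windows.

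Of the 26 lower windows 10 were on chromosome 4, between 13.9 and 136.0 Mb, and 4 on chromosome 5. On chromosome 4 this was 23.3% of its 43 members, and 25.1% of all its windows reaching 5 CPM were also called lower. On chromosome 7 edgeR called 0 of 39 members lower, and 0.434% of comparable windows. On chromosome 5 the shares were 9.52% of members and 15.6% of comparable windows. The 5 that fell most were at chr4 136.0 Mb (log2 -1.57 ± 0.23 SE, adjusted p in edgeR 0.0115), chr4 35.8 Mb (-1.47 ± 0.18, 0.0014), chr8 32.1 Mb (-1.30 ± 0.23, 0.0176), chr5 179.5 Mb (-1.11 ± 0.11, 0.000525) and chr4 91.2 Mb (-1.04 ± 0.12, 0.00137). The call at chr4 136.0 Mb was lost without id4 (log2 -1.55, adjusted p 0.0502). The call at chr8 32.1 Mb was lost without id1 (-1.28, adjusted p 0.0503), 714 (-1.39, 0.136) or 714H (-1.22, 0.175).

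The window next to it at chr4 91.3 Mb fell too, so the run of 2 there moved as one. At 91.2 Mb leaf held 214 to 283 CPM in the 4 lines, 136 in 714 and 112 in 714H, against 112 to 130 in root. At 91.3 Mb leaf held 34.6 to 36.7 CPM in the 4 lines, 17.9 in 714 and 17.5 in 714H, against 21.8 to 24.2 in root. At both, 714 and 714H leaf were below the other leaf libraries. At 91.2 Mb 714 still exceeded root, and at 91.3 Mb neither did.

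The most read window, at chr5 183.5 Mb, also fell, by 0.94 ± 0.16 (SE) on the log2 scale (adjusted p in edgeR 0.00621). It rests on 30320 reads in 714 and 43143 in 714H. The level in 714H lay between those of B73 and 714. The ratio to B73 leaf was 0.425 in 714 (exact 95% interval 0.419 to 0.430) and 0.601 in 714H (0.594 to 0.607). Such intervals cover counting error only and compare single libraries.

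In the other direction the highest rise was at chr10 133.7 Mb, among the 8 most read windows. Leaf held 809, 746, 750 and 815 CPM in B73, id1, id4 and 9d9a, and 1911 in 714 and 2284 in 714H. Root held 230 to 300.5 CPM. The groups were far apart, and the log2 change was 1.41 ± 0.09 SE (adjusted p in edgeR 6.11e-05). The others that rose most were at chr2 26 Mb (1.23 ± 0.20, adjusted p in edgeR 0.00813), chr2 74.9 Mb (0.99 ± 0.11, 0.000903), chr10 52.5 Mb (0.67 ± 0.11, 0.00647) and chr6 46.0 Mb (0.60 ± 0.11, 0.00845). Without 714 the calls at chr2 26 Mb (log2 1.22), chr10 52.5 Mb (0.57) and chr6 46.0 Mb (0.51) were lost. Without 714H that at chr2 26 Mb was lost (1.24).

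The adjoining windows at chr10 37.0 and 37.1 Mb, a pair picked out after its values were seen, moved in opposite directions. At 37.0 Mb leaf held 43.9 to 47.7 CPM in the 4 lines, 38.1 in 714 and 35.0 in 714H (log2 -0.35 ± 0.08 SE, adjusted p in edgeR 0.0339). At 37.1 Mb it held 33.2 to 45.3 CPM in the 4 lines, 55.2 in 714 and 51.8 in 714H (0.50 ± 0.13, 0.0488). The call at 37.1 Mb was lost when any library but that of B73 was left out (0.45 to 0.54). That at 37.0 Mb was not followed in those fits. The rises at chr1 127.7 Mb (0.43 ± 0.11, adjusted p in edgeR 0.0428) and chr5 73 Mb (0.38 ± 0.09, 0.0285) also depended on single libraries. That on chromosome 1 was lost without id1, id4, 9d9a, 714 or 714H (0.37 to 0.48) and that on chromosome 5 without id1, 9d9a, 714 or 714H (0.32 to 0.43).

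**Figure D4:**
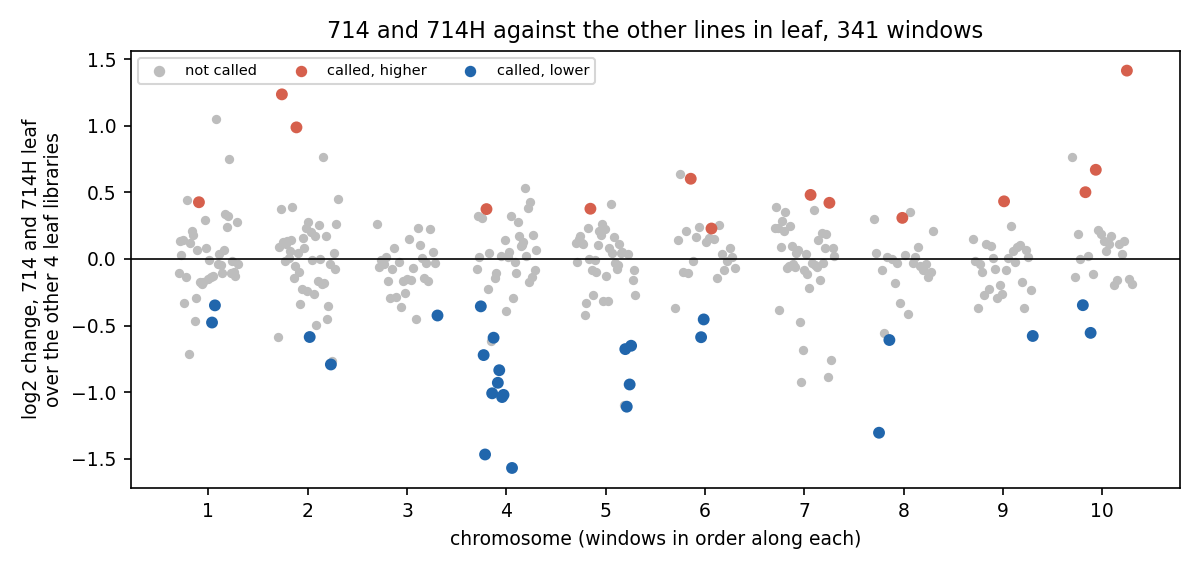
Log2 change of 714 and 714H leaf over the other 4 leaf libraries (edgeR) for the 341 windows, in order along each chromosome. Grey points were not called, blue were lower and red higher at an adjusted p under 0.05; of 26 blue points 10 lie on chromosome 4, and the highest red point, at 1.41, on chromosome 10.

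The lowest levels in 714 relative to the mean of the 4 lines were 0.270 of it at chr4 136.0 Mb, 0.286 at chr1 62.6 Mb, 0.427 at chr5 167.3 Mb, 0.435 at chr5 183.5 Mb and 0.449 at chr8 32.1 Mb. The lowest in 714H were 0.306 at chr4 35.8 Mb and 0.421 at chr4 136.0 Mb, 0.396 at chr8 32.1 Mb, 0.437 at chr10 93.7 Mb and 0.448 at chr4 91.2 Mb. The window at chr10 93.7 Mb set 714H apart from 714, with 8.40 against 28.1 CPM, and B73 leaf held 26.4. Its ratio to B73 was 0.318 in 714H (exact 95% interval 0.249 to 0.402) and 1.06 in 714 (0.914 to 1.23). The level in 714H lay below those of both B73 and 714.

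In 9 of the 341 windows 714 leaf was at least 2-fold below B73 leaf, and in 8 of these 714H lay between them. In 4 windows 714 was at least 2-fold above B73, with 714H between them in 3. On the CPM scale from 0 at B73 to 1 at 714, 714H had a median place of 0.83 in the 9 and 0.86 in the 4. In all windows reaching 5 CPM 714H lay between in 315 of 432 lower windows and 98 of 123 higher ones, with median places of 0.84 and 0.62. The place carries no error of its own.

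To ask where lines differed from B73 in both tissues, id1, id4 and 9d9a were set against B73 in edgeR with tissue as a covariate. Leaf and root of a line, 1 library each, stood as its replicates. The rule did not use the contrast between lines, but it chose the windows on the same libraries. It set a floor on the leaf to root ratio of each line, and the spread of that ratio between lines enters the error of the fit. These comparisons share the B73 libraries. The share of members called was close to that of all 20386 windows tested. Among windows reaching 5 CPM, as all members did, 6.25% were called in id1, 5.12% in id4 and 5.19% in 9d9a. The members' shares were below these in each line, and the gaps were not tested. In id1 18 of the 341 windows (5.28%) were called, against 5.51%. Of these 9 were higher (1.94% of all windows) and 9 lower (3.58%). In id4 16 (4.69%) were called, against 4.51%, with 4 higher (1.42% of all windows) and 12 lower (3.09%). In 9d9a 15 (4.40%) were called, against 4.61%, with 3 higher (1.54% of all windows) and 12 lower (3.08%). Without tissue as a covariate the counts were 1, 0 and 0. That fit leaves in its spread the leaf to root gap that the rule required of every member, so nothing is read from this loss. A window emptied in a line in both tissues could not meet a ratio of 1.4 on the CPM + 1 scale, so the rule itself kept out complete losses.

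Even so, several windows were reduced several fold in a line while leaf stayed above root, as the rule requires. At chr2 236.0 Mb id1 held 8.29 CPM in leaf and 5.15 in root, where B73 held 98.9 and 65.3, id4 93.2 and 65.4, and 9d9a 102 and 55.4. The log2 change in id1 was -3.62 ± 0.13 SE (adjusted p in edgeR 2.4e-11), and 714 and 714H leaf held 103 and 105 CPM. At chr1 60.3 Mb leaf and root levels were 12 and 4.28 CPM in B73 but 1.70 and 0.36 in id1, from 17 and 4 reads (log2 -3.0 ± 0.33 SE, adjusted p in edgeR 9.33e-06). With so few reads the size of that change is uncertain.

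At chr1 62.6 Mb several lines were low. Leaf held 78.2, 9.68, 28.2, 88.4, 13.9 and 49.2 CPM in B73, id1, id4, 9d9a, 714 and 714H. Root held 41.6, 6.22, 14.6 and 29.9 CPM in B73, id1, id4 and 9d9a. The log2 change was -2.90 ± 0.18 SE in id1 (adjusted p in edgeR 1.64e-08) and -1.5 ± 0.16 in id4 (1.5e-05). The 714 leaf library was lower than B73 root.

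The other windows that fell most in id4 were at chr2 19.7 Mb (log2 -1.11 ± 0.14 SE, adjusted p in edgeR 8.04e-05) and chr1 64.2 Mb (-0.84 ± 0.10, 5.74e-05). At chr2 19.7 Mb leaf and root levels were 27.1 and 16.3 CPM in B73 and 12.7 and 7.51 in id4. In 9d9a they were at chr1 232.7 Mb (-2.13 ± 0.16, adjusted p in edgeR 1.5e-06), chr7 21.6 Mb (-1.70 ± 0.14, 5.74e-07) and chr1 239.6 Mb (-1.49 ± 0.13, 7.13e-07). At chr1 232.7 Mb 9d9a held 22.8 CPM in leaf and 12.9 in root, while B73 held 128 and 43.8. The leaf level of 9d9a lay below the root level of every other line there, and the 9d9a root level lay lower still.

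**Figure D5:**
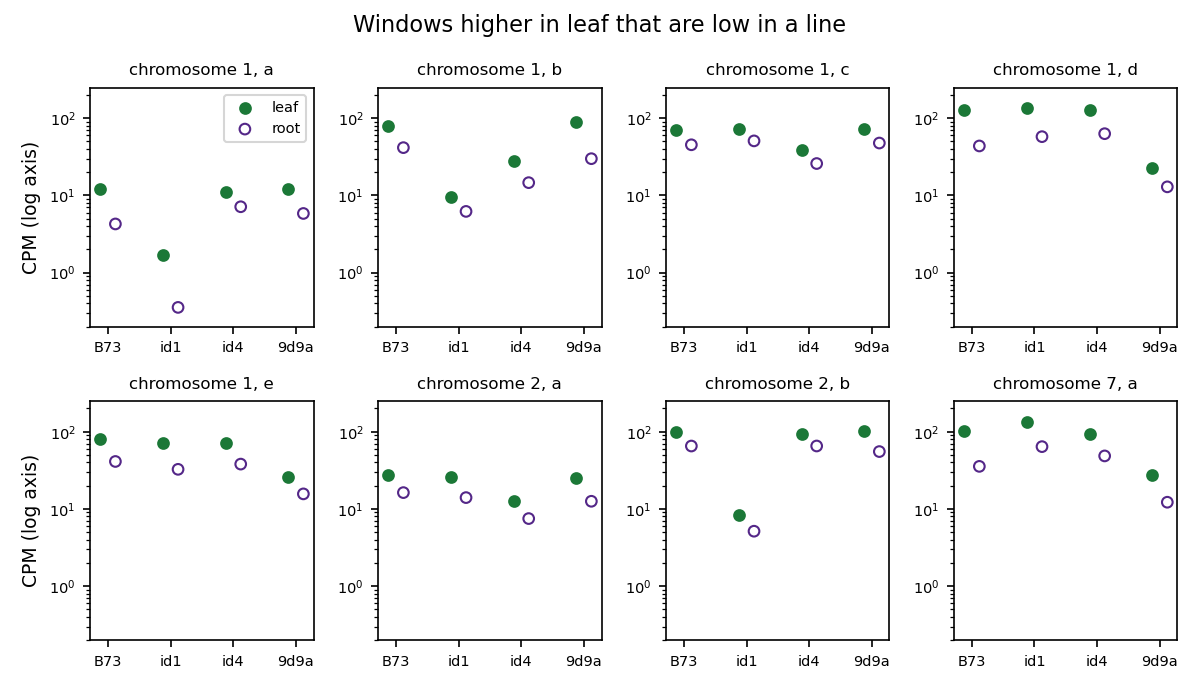
Level in CPM (log axis, the same in all panels) of the 8 windows that fell most in id1, id4 or 9d9a against B73, by line; filled points are leaf and open points root, 1 library each. On chromosome 1 a to e start at 60.3, 62.6, 64.2, 232.7 and 239.6 Mb, on chromosome 2 a and b at 19.7 and 236.0 Mb, and the chromosome 7 window at 21.6 Mb. Leaf lies above root in each line, as the rule requires. Both drop together in the low line, which the rule and the choice by a change fitted over both tissues largely set.

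Among the members, rises were fewer than falls for id4 and for 9d9a. The same imbalance held over all 20386 windows tested, with 290 higher and 630 lower for id4. For 9d9a the counts there were 313 higher and 627 lower, so this imbalance was not particular to the members. In each of the 3 lines the highest rise among the members was smaller than the deepest fall. At chr5 128.1 Mb leaf held 95.2, 173, 137, 48.6, 163 and 141 CPM in B73, id1, id4, 9d9a, 714 and 714H. Root held 41.1, 83.3, 75.2 and 27.5 CPM in B73, id1, id4 and 9d9a. The log2 change was 0.92 in id1 (adjusted p in edgeR 2.14e-05), 0.67 in id4 (0.000977) and -0.75 in 9d9a (0.000666). At chr1 282.0 Mb it was 0.84 in id1 (adjusted p in edgeR 0.0016) and 0.69 in id4 (0.014). At chr1 283.8 Mb the B73 libraries were the low ones, with 51.8 CPM in leaf against 76.0 to 86.6 in the other 5 leaf libraries, and 24.7 in root against 29.5 to 35.5. The remaining windows that rose most were at chr3 55.2 Mb in id1 (0.68, adjusted p in edgeR 0.0247) and at chr5 82.4 Mb (0.57, 0.00318) and chr6 147.5 Mb (0.54, 0.000852) in 9d9a.

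Fitted over the 8 libraries that chose the windows, edgeR called 327 of the 341 higher in leaf, against 11.3% of 20215 windows tested, and nothing is read from this count. The median log2 difference of the members in that fit was 0.89. The 14 windows not called included those at 236.0, 60.3 and 62.6 Mb named for their low levels in a line. That fit had no term for line, so differences between lines stayed in its spread. With the line as a replicate block 339 of the 341 were called higher, and nothing is read from that count either.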

How the data were processed

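Small RNA was measured in 10 libraries of maize leaf and root. Per the file headers and values, the deposited files hold counts, whole-number read totals per 100 kb window, with windows without reads left out and taken here as 0; the authors' files show no normalisation. The submitters' processing notes list Bowtie, a short-read aligner. Which version, which genome build and how reads with several matches were counted was not given in the sources used here; a window's count also depends on how closely a line matches the reference. A listed position was read as the window's start. No annotation of that build was used, so windows were not placed in genes.

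Groups came from the titles. CPM used file totals. Windows were tested in R 4.3.3 with edgeR 4.0.16 (TMM, default low-count filter, robust quasi-likelihood, Benjamini-Hochberg over all windows tested, threshold 0.05). The code was run on simulated data of independent libraries with a fixed spread. These differ from the real libraries, so that run says nothing of the error rate here. Standard errors equal the absolute log2 change over the square root of F. The comparisons were 714 and 714H leaf with the other leaf libraries (6 libraries, 4 residual degrees of freedom) and each line with B73 (8 libraries, 3 residual degrees of freedom). In the former 714 and 714H stood as replicates of a group, and in the latter leaf and root stood as replicates of a line. Leaf against root was fitted as a description. DESeq2 1.42.0, other scalings and filters and left-out libraries were alternatives. Leaf and root of a line share the line, and their deviations from the tissue means correlated at 0.635 to 0.853 over 16841 windows. No libraries were duplicates (closest pair 714 and 714H leaf, chi-square 5.42 per degree of freedom). Intervals cover counting error only. The members, lists and tests were chosen with earlier results of these data known. Named windows were those of highest ratio (12) and level (8), nearest the cut (5 on each side), in the longest runs (5), and the most changed in each comparison (up to 5, or 3 per line), with the 5 lowest in 714 and in 714H.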

Additional observations from a re-analysis of the deposited data

Results flagged for a closer look

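Among 94 sets of leaf or root levels at 47 named windows, 10 held a library far from the others, by the gap to its nearest neighbour relative to the whole range; chance alone gives about 5% of sets. In root, id4 was high at chr5 183.5 Mb (1058 CPM, the next 201) and id1 low at chr2 236.0 Mb (5.15 CPM, the next 55.4). In leaf, id1 was low at chr2 236.0 Mb (8.29 CPM, the next 93.2) and at chr1 60.3 Mb (1.70, the next 11). Leaf of id4 was low at chr2 19.7 Mb (12.7 CPM, the next 25.3) and chr1 64.2 Mb (39.2, the next 68.8). Leaf of 9d9a was low at chr1 232.7 Mb (22.8 CPM, the next 128) and chr1 239.6 Mb (25.7, the next 70.6). Leaf of B73 was low at chr1 283.8 Mb (51.8 CPM, the next 76.0) and chr6 147.5 Mb (131, the next 164). All but the id4 root level are windows named for a line difference, so a library apart was part of their choice.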

How the results depend on the processing

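The number of windows higher in leaf was 599 at a ratio of 1.3, 226 at 1.5 and 52 at 2, and 382 to 544 when a line was left out; other pseudocounts, level minimums and TMM scaling gave 303 to 368. With TMM scaling 309 windows were left, all among the 341. At a ratio of 2 all 52 windows had 714 and 714H leaf above root, and shares per chromosome ran from 0.138% to 0.652%; with a line left out, 347 to 499 windows had both above root. The medians of 714 and 714H over the mean leaf level moved by less than the spread between leaf libraries in every alternative run.

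Windows called for leaf against root numbered 5111, 2994 to 4119 with a line left out, and 7637 with the line as a replicate block. For 714 and 714H against the other leaf libraries 1596 windows were called, 941 to 1534 with a library left out, and 18 to 41 of the members. Without the tissue covariate 469 windows were called in id1, 228 in id4 and 238 in 9d9a, with 1, 0 and 0 members. In that fit 17 of the 18 named line changes lost their call. The fit leaves in its spread the leaf to root gap that the rule required of members, so nothing is read from their losses. With a line left out the members called were 20 to 22 in id1, 14 to 18 in id4 and 15 to 18 in 9d9a. B73 cannot be left out of a comparison with it. No named change turned its sign; DESeq2 lost 2 of 33, at chr3 55.2 Mb in id1 (adjusted p 0.0865) and chr1 283.8 Mb in 9d9a (0.0633). Depth limits the windows with few reads, such as 4 in id1 root at chr1 60.3 Mb.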
